A study of Mus musculus with 14 samples.

Results

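Hox genes encode the homeodomain transcription factors that give cells their position along the body axis and along the limb, and they were selected by symbol alone: a mouse gene named Hox followed by the cluster letter a, b, c or d and a number. RefSeq listed 39 such genes, and 22 of them had a row in at least 1 of the tables, among 14837 genes in the input table. By cluster, 10 of 11 HoxA genes, 3 of 10 HoxB genes, 9 of 9 HoxC genes and 0 of 9 HoxD genes had a row. Hoxa13, the other 7 HoxB genes and the HoxD genes were not analysed here.

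The mammalian Hox genes lie in 4 clusters, and genes with the same number in different clusters are paralogues that share an ancestor. Low-numbered genes are turned on early and anteriorly, and high-numbered genes late and posteriorly or distally, so that the set of active genes records where along the axis or limb a cell arose. Adult muscle stem cells and fibroblasts are known to keep much of this record in culture. The proteins bind DNA with partners of the TALE class, such as Pbx and Meis proteins, while Polycomb and MLL complexes hold the clusters silent or active.

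The libraries came from mouse muscle stem cells (MuSCs) of skeletal muscle, grown without treatment on Matrigel in serum-containing medium. The 2 groups were labelled by genotype as Control and Lin28a positive (Lin28a+). Per the study, Lin28a+ cells carried Lin28a-CreERT2 and LSL-tdTomato and were sorted by flow cytometry. CreERT2 is a tamoxifen-inducible Cre, driven here by Lin28a, and LSL-tdTomato is a reporter that Cre turns on. Age was not given in the labels. Each group had 2 libraries of input RNA, 2 of RNA pulled down with an antibody against N6-methyladenosine (m6A-RIP) and 2 pulled down with an antibody against Igf2bp3, a reader of m6A (Igf2bp3-RIP). Lin28a+ cells also had 2 libraries of RNA pulled down with Lin28a (Lin28a-RIP).

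The 14 libraries summed to between 4842915 and 6220960 estimated counts for input, 21350962 and 31830638 counts for m6A-RIP, 9215355 and 34142094 for Igf2bp3-RIP and 33908110 and 36610494 for Lin28a-RIP. The 2 Lin28a+ input columns are headed as m6A-RIP libraries, and they were taken as input because the table is the one the labels give for the input samples, so every RNA value of Lin28a+ cells rests on that reading. In the m6A-RIP table the Lin28a+ columns share a single name. The Lin28a+ libraries of both tables are therefore called A and B. Values are given as counts per 1000000 of a library's own table total (CPM), without TMM factors, while fold changes use TMM factors, which correct for composition. A CPM also depends on transcript length. Levels were therefore compared between genes only to split or rank them by input level or by m6A-RIP over input, with this limit. The labels do not say whether the 2 libraries of a group came from separate animals or cultures, so p-values measure only the spread between these libraries, which may be technical. Myogenic identity was present: 18 of 20 myogenic markers were listed, with a summed level of 17398 to 18058 CPM in control libraries and 17587 to 17808 CPM in Lin28a+ libraries. Lin28a itself had no row in the input table used here.

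**Figure D1:**
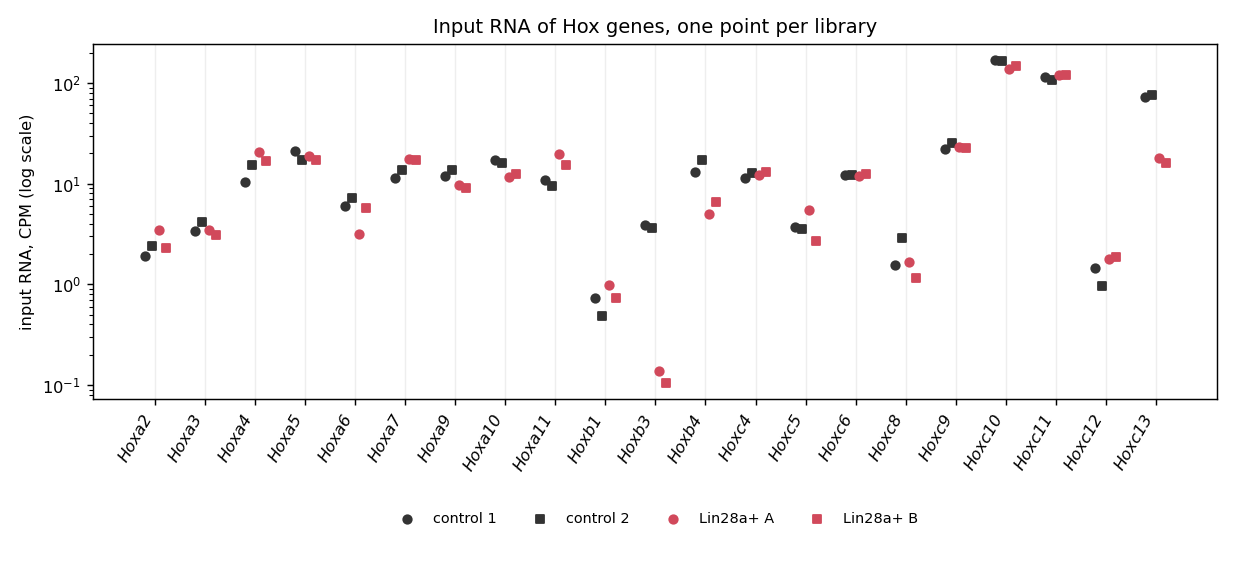
Input RNA of the Hox genes described in the text, in CPM on a log scale, grouped by cluster and ordered by paralogue number, with 1 point for each of 2 control (black) and 2 Lin28a+ (red) libraries. Hoxb3, Hoxb4 and Hoxc13 show the widest separation of the groups, while most HoxC genes lie close together.

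The RNA comparison asked which Hox genes differed between Lin28a+ and control MuSCs. Among Hox genes that passed the filter on low counts in both groups, the steepest falls were in Hoxc13 and the anterior gene Hoxb4. Hoxc13 is the last gene of the HoxC cluster and known from hair and nail formation. Hoxb3, the neighbour of Hoxb4, had a larger fall, in a direction that the filter had fixed. Of the 22 listed genes, 19 passed the filter on low counts, and 9 of the 19 were called by edgeR's quasi-likelihood test at a Benjamini-Hochberg adjusted p under 0.05. Hoxa7 and Hoxa11 were higher in Lin28a+ MuSCs, and those lower included Hoxa9, Hoxa10, Hoxb3, Hoxb4, Hoxc10 and Hoxc13. Over all 11317 genes tested, 28.1% were called higher and 28.7% lower, so calls were common throughout, and the 47.4% of Hox genes called lay below the summed share of all genes. The median log2 fold change was -0.10 for the 19 Hox genes and 0.01 for all genes.

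Hoxc13 had 72.4 and 75.1 CPM in the control libraries and 17.8 and 15.9 CPM in the Lin28a+ libraries. The groups did not overlap, and the log2 fold change was -2.16 (SE 0.060, adjusted p = 8.9e-06, n = 2 per group), a 4.46-fold fall. It rested on 396 and 467 estimated counts in control libraries and 90 and 77 in Lin28a+ libraries.

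Hoxb4, a factor known from the expansion of blood stem cells, had 13.2 and 17.2 CPM in control libraries and 4.94 and 6.61 CPM in Lin28a+ libraries, with no overlap of the groups. Its log2 fold change was -1.44 (SE 0.19, adjusted p = 0.0013), a 2.71-fold fall. Hoxb3, which acts in the hindbrain and pharyngeal region, had 21.2 and 22.5 estimated counts in control and 0.70 and 0.50 in Lin28a+ libraries. It passed the filter through the control libraries only, so a difference was built into its selection. The summed rounded counts of 43 and 2 gave a depth-adjusted ratio of 18.2 of control to Lin28a+, with an exact 95% interval of 4.74 to 155 that covers counting error only. In RefSeq the span of Hoxb3 contains Hoxb4, and whether counting used the strand was not given in the sources used here, so reads of the pair may be shared. The third listed HoxB gene, Hoxb1, stayed under the filter with 0.48 to 0.99 CPM in all 4 libraries.

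**Figure D2:**
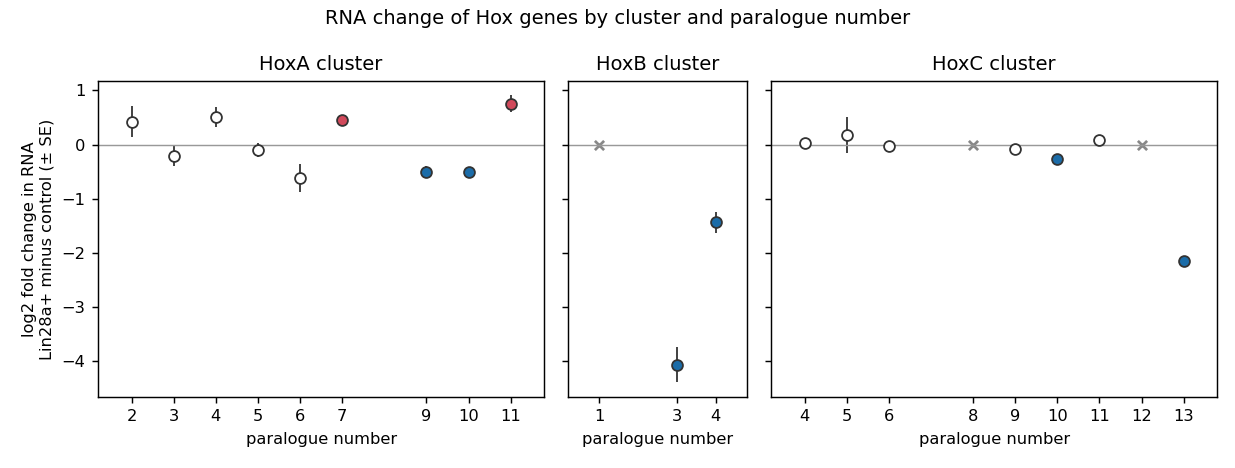
Log2 fold change of input RNA (Lin28a+ minus control, ± SE, 2 libraries per group) against paralogue number in the HoxA, HoxB and HoxC clusters. Filled points were called (red higher, blue lower), open points were not, and crosses at 0 mark the 3 genes under the filter. Called HoxA genes lie on both sides of 0, both tested HoxB genes lie below it, and in HoxC only genes 10 and 13 were called.

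Within the HoxA cluster the calls went both ways, by smaller amounts. Hoxa11, which patterns the middle segment of the limb, rose from 10.8 and 9.56 CPM to 19.8 and 15.4 CPM (log2 fold change 0.76, SE 0.15, adjusted p = 0.0072). Hoxa7, a gene of the trunk, rose from 11.4 and 13.6 CPM to 17.7 and 17.3 CPM (log2 fold change 0.46, SE 0.090, adjusted p = 0.0090). The genes between them on the chromosome moved the other way.

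Hoxa9 had 12.0 and 13.8 CPM in control libraries and 9.61 and 9.09 CPM in Lin28a+ libraries, a log2 fold change of -0.50 (SE 0.095, adjusted p = 0.016). Hoxa10 had 17.1 and 16.0 CPM in control libraries and 11.6 and 12.4 CPM in Lin28a+ libraries, a log2 fold change of -0.51 (SE 0.084, adjusted p = 0.0056). These 2 posterior genes are known from limb and urogenital patterning and from blood progenitors. In Hoxa7, Hoxa9, Hoxa10 and Hoxa11 the groups did not overlap.

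Other HoxA genes were not called. Hoxa4 had 10.4 and 15.3 CPM in control libraries and 20.8 and 16.9 CPM in Lin28a+ libraries (log2 fold change 0.51, SE 0.18, adjusted p = 0.062), and Hoxa6 had 6.04 and 7.23 CPM against 3.16 and 5.78 CPM (log2 fold change -0.61, SE 0.26, adjusted p = 0.097). In both the groups were apart but the spread within a group was wide. Hoxa5, which acts in lung and trunk, had 20.9 and 17.2 CPM in control libraries and 18.8 and 17.1 CPM in Lin28a+ libraries (log2 fold change -0.10, SE 0.12, adjusted p = 0.57). Hoxa2 and Hoxa3, genes of the pharyngeal arches, overlapped between the groups as well, with log2 fold changes of 0.42 and -0.20. Hoxa2 lay above the cut of the filter in both Lin28a+ libraries but not in both control libraries. In RefSeq the span of Hoxa3 contains Hoxa4, Hoxa5 and Hoxa6, so reads of these genes may also be shared.

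The promoters of the 4 HoxA genes from Hoxa7 to Hoxa11, all called, and of Hoxb4, are shown because neighbouring genes moved in opposite directions. The 300-base windows run 5′ to 3′ from 250 bases before to 50 after the RefSeq start (GRCm38.p6). Capitals mark matches on either strand to any of 4 motifs. The first is GGGCGG, known as the GC box and bound by Sp1. The next is AGGTCA, known as the half-site of nuclear receptors such as those for retinoic acid. The others are the TATA box, searched as TATAAA, and the CCAAT box, searched by its name. Of the 9 called genes, 5 had a promoter in the table, and Hoxa10 is shown at the more upstream of its starts.
Hoxa7 (higher, chr6:52218524-52218823, minus strand): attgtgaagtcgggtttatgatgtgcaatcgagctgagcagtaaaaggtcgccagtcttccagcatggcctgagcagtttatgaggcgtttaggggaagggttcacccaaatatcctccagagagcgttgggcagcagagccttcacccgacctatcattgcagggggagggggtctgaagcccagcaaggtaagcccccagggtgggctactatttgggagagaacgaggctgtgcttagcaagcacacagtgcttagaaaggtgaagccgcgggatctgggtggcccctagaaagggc
Hoxa9 (lower, chr6:52227321-52227620, minus strand): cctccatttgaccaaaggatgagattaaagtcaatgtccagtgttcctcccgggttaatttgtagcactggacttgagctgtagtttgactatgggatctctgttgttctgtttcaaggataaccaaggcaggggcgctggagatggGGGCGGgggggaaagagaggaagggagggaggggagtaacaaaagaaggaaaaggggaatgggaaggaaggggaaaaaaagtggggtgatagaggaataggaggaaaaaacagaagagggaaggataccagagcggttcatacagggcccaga
Hoxa10 (lower, chr6:52240805-52241104, minus strand): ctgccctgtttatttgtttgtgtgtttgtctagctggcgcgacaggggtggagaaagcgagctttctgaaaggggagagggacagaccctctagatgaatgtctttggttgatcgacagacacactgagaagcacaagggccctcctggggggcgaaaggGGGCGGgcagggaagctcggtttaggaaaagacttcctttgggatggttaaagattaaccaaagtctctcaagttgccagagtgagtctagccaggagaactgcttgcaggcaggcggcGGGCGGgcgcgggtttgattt
Hoxa11 (higher, chr6:52245761-52246060, minus strand): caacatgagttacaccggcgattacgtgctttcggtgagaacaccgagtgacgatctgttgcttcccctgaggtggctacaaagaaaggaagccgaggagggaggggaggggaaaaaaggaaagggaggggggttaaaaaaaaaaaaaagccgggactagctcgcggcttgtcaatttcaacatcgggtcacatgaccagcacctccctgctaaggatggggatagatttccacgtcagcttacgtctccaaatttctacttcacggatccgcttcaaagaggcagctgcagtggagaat
Hoxb4 (lower, chr11:96318017-96318316, plus strand): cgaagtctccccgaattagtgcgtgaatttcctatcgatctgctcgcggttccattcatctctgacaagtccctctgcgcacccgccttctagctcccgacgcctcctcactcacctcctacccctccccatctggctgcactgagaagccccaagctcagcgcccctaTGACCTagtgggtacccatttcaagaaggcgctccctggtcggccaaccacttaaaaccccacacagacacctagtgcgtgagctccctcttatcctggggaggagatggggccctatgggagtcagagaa

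The GC box was found in the windows shown for Hoxa9 and Hoxa10 and in 35.7% of all 32851 promoters of the same length. AGGTCA was found in the Hoxb4 window, on the minus strand, and in 16.3% of all promoters. The TATA box and the CCAAT box, found in 13.6% and 37.4% of all promoters, were in none of the 5 windows shown, but both were found in the window at the other start of Hoxa10. The windows of Hoxa7 and Hoxa11 held none of the 4 motifs. These matches describe the letters only.

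The tested genes of the HoxC cluster had log2 fold changes close to 0 outside its posterior end, though that of Hoxc5 was imprecise. Of the 7 tested HoxC genes, Hoxc10 and Hoxc13 were called, both lower, beside 28.7% of all genes called lower. The median log2 fold change of the 7 was -0.02. Hoxc10, a gene of the hindlimb and lumbar level, had 168 and 166 CPM in control libraries and 138 and 148 CPM in Lin28a+ libraries, a log2 fold change of -0.26 (SE 0.040, adjusted p = 0.0026). Its neighbour Hoxc11 had 116 and 108 CPM in control libraries and 121 and 119 CPM in Lin28a+ libraries, and the groups were apart but not called (log2 fold change 0.08, SE 0.052, adjusted p = 0.24).

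Hoxc4, Hoxc5, Hoxc6 and Hoxc9 had log2 fold changes of 0.04, 0.18, -0.02 and -0.09 (SE 0.088, 0.33, 0.072 and 0.076). The libraries of the groups overlapped in each. Hoxc9, a gene of thoracic identity, had 21.9 and 25.3 CPM in control libraries and 23.0 and 22.6 CPM in Lin28a+ libraries. Hoxc8 and Hoxc12 stayed under the filter, at 1.15 to 2.89 CPM and 0.96 to 1.86 CPM over the 4 libraries.

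By cluster, calls in HoxA went both ways, 2 of 7 tested HoxC genes were lower, and in HoxB Hoxb4 was lower beside Hoxb3, whose direction the filter had fixed. By paralogue number, the calls in groups 1 to 4 were lower and included Hoxb3 and Hoxb4. Of the 5 tested genes of groups 5 to 8, 1 was called, higher. Of the 7 tested genes of groups 9 to 13, 1 was called higher and 4 lower, beside 28.1% and 28.7% of all genes. The medians of these classes were -0.20, -0.02 and -0.26 on the log2 scale, and each class held values on both sides of 0.

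The size of the set called depended on the tool. With DESeq2, 3 of the 19 Hox genes were called, namely Hoxb4 (adjusted p = 0.0039), Hoxc13 (adjusted p = 5.9e-23) and Hoxb3 (adjusted p = 0.0072), whose direction the filter had fixed, and over all genes 1479 were called higher and 1560 lower, against 3184 and 3248 with edgeR. The adjusted p of the other 6 under DESeq2 was between 0.061 for Hoxc10 and 0.38 for Hoxa9. Leaving out single input libraries also ended the calls of Hoxa7, Hoxa9 and Hoxa10 in at least 1 case each.

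In bulk RNA, fewer cells of a type and less RNA per cell cannot be told apart. Markers of other cell types moved too. Of 11 listed markers of fibro-adipogenic progenitors, the summed level was 309 to 322 CPM in control libraries and 220 to 223 CPM in Lin28a+ libraries, with Smoc2, Gsn and Fbn1 lower, Ly6a higher and Pdgfra at 0.088 to 0.24 CPM. Gsn made up 140 and 148 CPM of it in control libraries against 63.5 and 64.5 CPM in Lin28a+ libraries, while Col3a1, at 117 to 120 CPM in the 4 libraries, overlapped between the groups and was not called. Osr1 and Twist2, under the filter, were higher in both Lin28a+ libraries than in either control, at up to 0.99 and 1.38 CPM. Of 6 listed endothelial markers, the sum was 13.9 to 14.1 CPM and 4.34 to 4.76 CPM, and Eng, the only member tested and called lower, made up 12.0 and 12.1 CPM of it in control and 2.34 and 1.89 CPM in Lin28a+ libraries. Pecam1 was at 0.39 to 0.50 CPM in the 4 libraries. Egfl7 and Tie1, under the filter, were higher in both Lin28a+ libraries than in either control, at up to 1.08 and 0.37 CPM, and 3 of 4 endothelial markers were called higher in m6A-RIP, beside 32.5% of all genes. The 6 listed macrophage markers summed to 3.52 to 5.85 CPM with no call, and Ptprc was at 0.032 to 0.070 CPM. The 10 listed pericyte and smooth muscle markers summed to 5750 to 5845 CPM in control libraries and 7821 to 7834 CPM in Lin28a+ libraries, of which Acta2, also made by cultured myoblasts, was 5311 to 7495 CPM. Among these, Mcam, Pdgfrb, Acta2 and Notch3 were higher and Tagln and Rgs5 lower, and Pdgfrb passed the filter through the Lin28a+ and Rgs5 through the control libraries only. Their part in the Hox results was not tested.

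The m6A-RIP comparison asked whether m6A-marked Hox transcripts differed between the groups. The table held 24 rows in 14 Hox genes, with 7 rows in HoxA, 1 in HoxB and 16 in HoxC, and gave a transcript but no position for a row. Hoxa4, Hoxa5, Hoxc4 and Hoxc13 had 2 rows each, Hoxc6, Hoxc9 and Hoxc11 had 3 each, and Hoxa7, Hoxa9, Hoxa10, Hoxb4, Hoxc5, Hoxc8 and Hoxc10 had 1 each. All 24 rows were tested, and 5 were called higher and 5 lower. Over all 18881 rows, 30% were called higher and 31.8% lower.

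Both Hoxc13 rows fell. The first had 12.8 and 13.2 CPM in control libraries and 3.87 and 4.39 CPM in Lin28a+ libraries (log2 fold change -1.49, SE 0.16, adjusted p = 2.2e-06). The second had 32.8 and 30.3 CPM in control libraries and 7.24 and 6.09 CPM in Lin28a+ libraries (log2 fold change -2.10, SE 0.13, adjusted p = 4.8e-09). The Hoxb4 row had 17.8 and 17.0 CPM in control libraries and 4.55 and 4.43 CPM in Lin28a+ libraries (log2 fold change -1.80, SE 0.14, adjusted p = 8.0e-08). In these 3 rows both control libraries lay far above both Lin28a+ libraries.

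The Hoxa9 row, at 24.9 and 26.4 CPM in control libraries and 17.1 and 17.5 CPM in Lin28a+ libraries, fell by 0.41 on the log2 scale (SE 0.10, adjusted p = 0.0026). The Hoxa10 row, at 35.6 and 35.3 CPM against 23.0 and 24.5 CPM, fell by 0.42 (SE 0.082, adjusted p = 4.6e-04). The Hoxa7 row, at 33.4 and 32.8 CPM in control libraries and 37.5 and 37.4 CPM in Lin28a+ libraries, rose by 0.33 (SE 0.073, adjusted p = 0.0013). The 3 adjacent genes thus had m6A-RIP changes of the same sign as their RNA. Hoxa11, whose RNA rose, had no m6A-RIP row.

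Hoxa4 showed a difference between its rows. Its first row was at 17.1 to 19.1 CPM in control libraries and 15.8 to 17.7 CPM in Lin28a+ libraries, with overlapping groups and no call (log2 fold change 0.04). Its second, low row was at 1.51 and 1.17 CPM in control libraries and 3.28 and 2.76 CPM in Lin28a+ libraries, a log2 fold change of 1.30 (SE 0.29, adjusted p = 0.0015). The difference between the rows was not tested.

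The other rows called higher were small, and the CPM of Hoxc8 overlapped between the groups: 1 of 2 Hoxc4 rows (log2 fold change 0.44), the Hoxc8 row (0.22) and 1 of 3 Hoxc11 rows (0.23). With total counts in place of TMM factors, the median log2 fold change of all rows shifted by -0.15, the Hox calls became 2 higher and 7 lower, and these 3 rows lost their calls. Over all rows the split then went from 5665 higher and 6005 lower to 3842 higher and 7638 lower. Hoxa7 and the second Hoxa4 row stayed called higher under both scalings, and the rows of Hoxc13, Hoxb4, Hoxa9 and Hoxa10 stayed called lower.

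Summed over rows of a gene, 3 of 14 Hox genes were called higher in m6A-RIP (Hoxa7, Hoxc4 and Hoxc11) and 4 lower (Hoxa9, Hoxa10, Hoxb4 and Hoxc13), against 32.5% higher and 33.8% lower of all 9416 genes. Hoxc13 fell by 1.94 on the log2 scale (SE 0.087) and Hoxb4 by 1.85 (SE 0.15). With total counts 1 gene was called higher, Hoxa7, and 6 lower, with Hoxc5 and Hoxc6 added, and the split of all genes went from 3060 higher and 3179 lower to 2395 higher and 3766 lower.

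**Figure D3:**
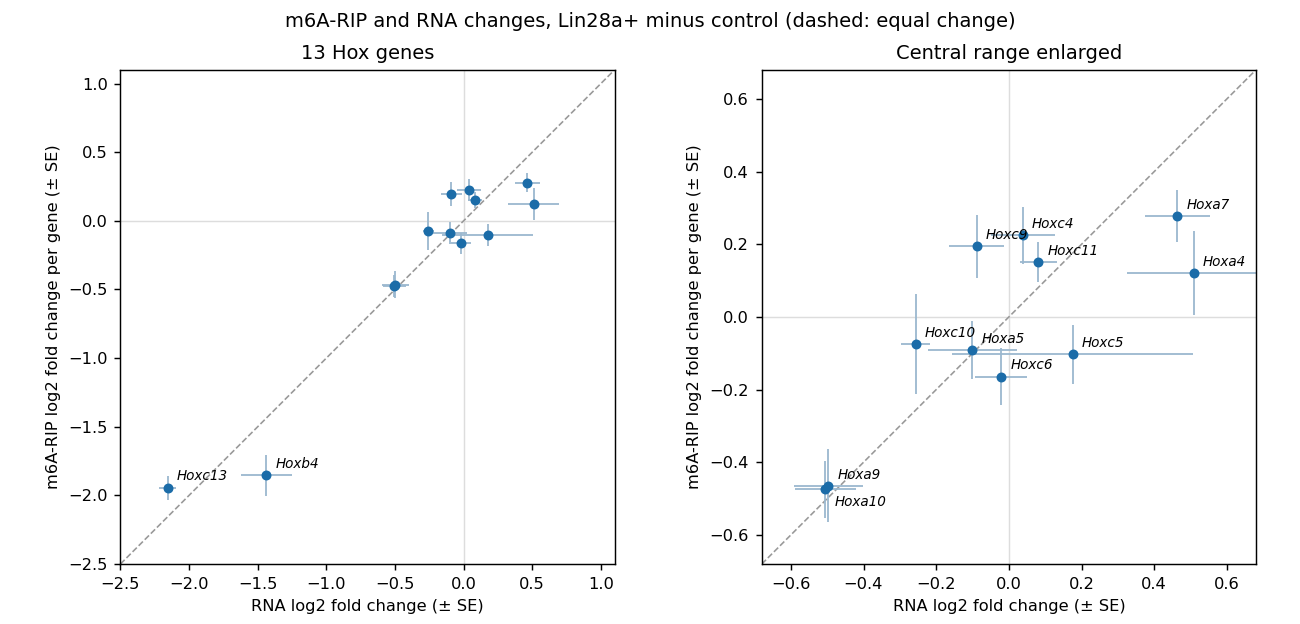
Log2 fold change (Lin28a+ minus control, ± SE) in m6A-RIP per gene against that in input RNA for the 13 Hox genes tested in both, with the central range enlarged on the right and a dashed line of equal change. Hoxc13 and Hoxb4 lie far down on both axes, Hoxa9 and Hoxa10 lie together at about -0.5 on both, and no gene differed from the line by a called amount.

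To ask whether m6A-RIP changed beyond RNA, both assays were put in 1 model with an interaction term. Of the 14 Hox genes, 0 were called by edgeR, 0 had an unadjusted p under 0.05, and 0 were called by DESeq2 or by limma voom with a weight per assay, while 7.16% of 7950 genes were called in either direction by edgeR. The m6A-RIP change minus the RNA change was 0.20 for Hoxc13 (SE 0.11, adjusted p = 0.59) and -0.44 for Hoxb4 (SE 0.23, adjusted p = 0.42) on the log2 scale. For Hoxa9 and Hoxa10 it was 0.02 in each (SE 0.15 and 0.14). The largest value was that of Hoxc8, 0.79 (SE 0.45, adjusted p = 0.47), whose RNA was under the filter.

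The genes differed in how much m6A-RIP signal they gave relative to input. On a log2 scale of m6A-RIP CPM over input CPM, each summed per gene with a pseudocount of 1 CPM, Hoxc8 was at 3.67 in control and 4.15 in Lin28a+ cells, the 94.7th and 96.0th percentile of 7950 genes. Its single m6A-RIP row had 38.2 to 44.7 CPM while its RNA had 1.15 to 2.89 CPM. Hoxc5 was at 2.69 and 2.35, the 88.4th and 86.3rd percentile. Hoxc10 was at -3.27 and -3.20, the 2.39th and 2.84th percentile, with 14.1 to 18.3 CPM in its single row beside 138 to 168 CPM of RNA. In each group 7 of the 14 Hox genes were above the median of all genes. This ratio depends on the number and length of the regions in the table and is given as a description.

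Igf2bp3 RNA rose in Lin28a+ MuSCs from 11.3 and 10.7 CPM to 35.8 and 34.3 CPM (log2 fold change 1.65, SE 0.070), while its m6A-RIP signal, already at 5557 and 5961 CPM in control, was 6540 and 7008 CPM in Lin28a+ libraries (log2 fold change 0.34, SE 0.041). Igf2bp1, a gene beside the HoxB cluster, was under the filter at 0.29 to 0.47 CPM. The Igf2bp3-RIP comparison asked where this reader was found on Hox transcripts. The table held 2 peaks annotated to Hox genes among 19465 peaks, in Hoxc13 and Hoxa5. Of the 19 Hox genes tested in RNA, 2 had an Igf2bp3 peak (10.5%), against 32.9% of the 11317 genes tested and 26.6% of those at or below the median input level, where 15 of the 19 Hox genes lay.

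The Hoxc13 peak was at chr15:102927289-102927500 as the file gives it, inside the RefSeq span of Hoxc13. The labels list the mouse build mm10 and the human build GRCh38, and 80.6% of all Igf2bp3-RIP peaks overlapped the GRCm38.p6 span of their own gene. It had 17.4 and 13.6 CPM in control libraries and 9.11 and 6.15 CPM in Lin28a+ libraries, from 160, 374, 115 and 210 counts. The groups did not overlap, but the log2 fold change of -1.05 (SE 0.34) was not called (edgeR adjusted p = 0.72), and 0.123% of all peaks were called in either direction. Per gene the value was -1.06 (SE 0.30, adjusted p = 0.39), with 0.287% of 4527 genes called. In both fits 1 of the 2 Hox values had an unadjusted p under 0.05 and DESeq2 called 0. With the replicate number as a block in edgeR, Hoxc13 was called for the peak (adjusted p = 4.8e-04) and per gene (adjusted p = 0.018). The block then called 1988 of all 19465 peaks and 374 of 4527 genes.

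The peak annotated to Hoxa5 was at chr6:52205000-52205232, which lay outside the RefSeq span of Hoxa5 and within the spans of Hoxa3 and Hoxa6. It had 7.05 and 7.07 CPM in control libraries and 9.43 and 5.36 CPM in Lin28a+ libraries, and the groups overlapped (log2 fold change 0.03, SE 0.37, adjusted p = 1.00). Which of the 3 genes the reads belong to was not tested.

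**Figure D4:**
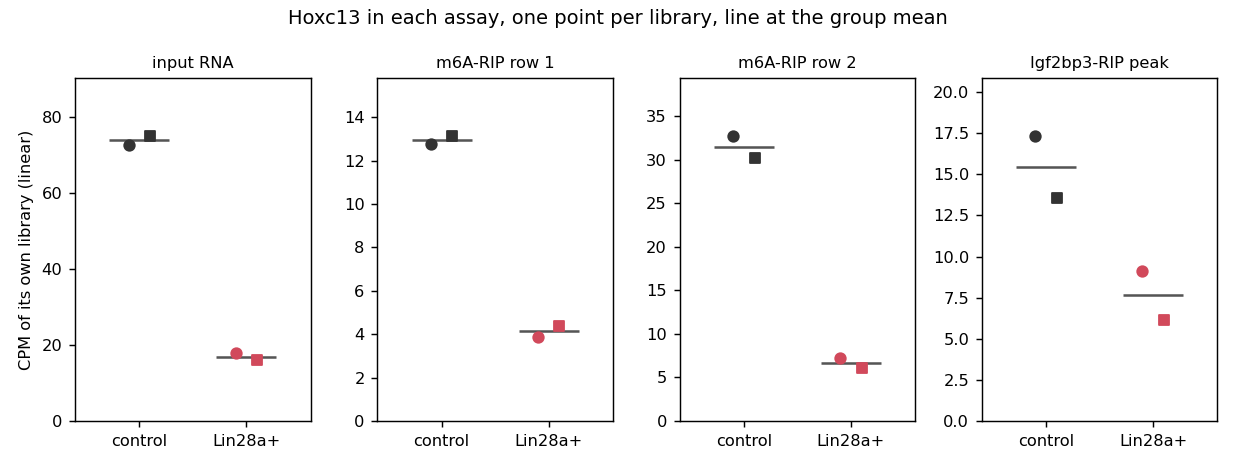
Hoxc13 in input RNA, in its 2 m6A-RIP rows and in its Igf2bp3-RIP peak, as CPM of each library on linear axes that start at 0, with 2 control (black) and 2 Lin28a+ (red) libraries and a line at each group mean. The Lin28a+ points lie below both control points in each assay, with the smallest gap in Igf2bp3-RIP.

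Relative to RNA, the Igf2bp3-RIP change of Hoxc13 was 0.86 on the log2 scale (SE 0.26, adjusted p = 0.12) and that of Hoxa5 was -0.14 (SE 0.35, adjusted p = 0.86). Neither was called by edgeR, DESeq2 or limma voom, 1 of the 2 had an unadjusted p under 0.05, and 1.04% of 3927 genes were called by edgeR. Over all genes the calls were 14 higher and 27 lower, and with total counts 33 higher and 13 lower. For Hoxc13 the drop in Igf2bp3-RIP was smaller in value than that in RNA, and the difference did not pass the test without a replicate block; with the replicate number as a block, Hoxc13 was called. In control Hoxc13 had 15.5 ± 2.69 CPM and in Lin28a+ cells 7.63 ± 2.10 CPM of Igf2bp3-RIP (SD, n = 2).

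The Lin28a-RIP table, with 21616 peaks from Lin28a+ MuSCs, held 0 peaks annotated to a Hox gene, and 0 peaks overlapped the RefSeq span of a Hox gene. Of all genes tested in RNA 25.4% had a Lin28a peak, and 19.7% of those at or below the median level. Hence 0 Hox peaks were shared between Lin28a-RIP and Igf2bp3-RIP. Control cells had no Lin28a-RIP, so the 2 groups could not be compared.

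Hox proteins act with TALE partners. All 9 cofactors were listed and 8 were tested, of which 1 was called higher and 0 lower, beside 28.1% and 28.7% of all genes. Pknox2 rose from 1.44 and 1.53 CPM to 5.06 and 4.94 CPM (log2 fold change 1.75, SE 0.17, adjusted p = 3.9e-04), and it passed the filter through the Lin28a+ libraries only. Others, Pbx2, Pbx3, Meis1, Meis2, Meis3 and Pknox1, had log2 fold changes from -0.72 for Meis1 to 0.33 for Meis3. In m6A-RIP 3 of 6 were called higher and 1 lower, beside 32.5% and 33.8% of all genes. Of the 9, 4 had an Igf2bp3 peak and 0 a Lin28a peak, beside 32.9% and 25.4% of all genes tested in RNA.

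Polycomb and MLL subunits moved in both directions. Of 36 tested regulators, 14 were called higher and 8 lower, beside 28.1% and 28.7% of all genes, with a median log2 fold change of 0.14. Cbx2, a chromodomain subunit of Polycomb repressive complex 1, rose from 23.1 and 22.6 CPM to 48.9 and 41.9 CPM (log2 fold change 0.97, SE 0.094), and the m6A-RIP signal of Cbx2 rose by 1.02. Phf19, a partner of Polycomb repressive complex 2, had a log2 fold change of 1.95 (SE 0.38) at low levels of 0.66 and 0.55 CPM in control libraries and 1.98 and 2.93 CPM in Lin28a+ libraries, and it passed the filter through the latter only. Dpy30, a core subunit of the MLL complexes, rose from 18.3 and 18.1 CPM to 33.6 and 31.0 CPM (log2 fold change 0.80, SE 0.069). Lower were Phc3 (log2 fold change -1.03), Jarid2 (-0.81) and Mllt3 (-0.75), and the m6A-RIP signal of Jarid2 rose by 0.39. That signal was at 2525 to 3375 CPM over the m6A-RIP libraries, beside only 2.32 to 4.32 CPM of Jarid2 RNA in input. Whether it came from the Jarid2 mRNA was not tested. In m6A-RIP 17 of 31 regulators were called higher and 9 lower, beside 32.5% and 33.8% of all genes. Of the 37 on the list, 22 had an Igf2bp3 peak and 15 a Lin28a peak, beside 32.9% and 25.4% of all genes tested in RNA and 39.3% and 31.1% of those above the median level. Ezh2, the methyltransferase of Polycomb repressive complex 2, was not called, at 10.1 and 10.2 CPM in control libraries and 12.2 and 10.6 CPM in Lin28a+ libraries.

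Retinoic acid turns on anterior Hox genes in the embryo, and genes of its pathway were split. Of 19 genes 16 were listed and 9 tested, with 2 called higher and 2 lower, beside 28.1% and 28.7% of all genes. Crabp2, which carries retinoic acid to its receptors, fell from 19.1 and 19.5 CPM to 3.56 and 3.41 CPM (log2 fold change -2.51, SE 0.088). Rxrb rose by 0.90, and Gdf11, a TGF-beta family ligand that sets axial Hox boundaries, fell by 0.39. The receptors Rara, Rarg and Rxra were not called, with log2 fold changes of 0.09, 0.15 and 0.20.

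Positional transcription factors outside the Hox clusters were called more often lower than higher. Of 51 genes on the list, 26 were listed in input and 22 tested, with 4 called higher and 14 lower, beside 28.1% and 28.7% of all genes, and a median log2 fold change of -0.60. Lbx1, which marks migrating limb muscle precursors, had 141 and 146 CPM in control libraries and 3.95 and 4.13 CPM in Lin28a+ libraries (log2 fold change -5.17, SE 0.061, adjusted p = 1.4e-06). Its m6A-RIP signal fell by 5.14 on the log2 scale. Tbx1, a regulator of head and pharyngeal muscle, went the other way, from 0.70 and 1.29 CPM to 22.4 and 20.5 CPM (log2 fold change 4.32, SE 0.17, adjusted p = 2.3e-05), and its m6A-RIP signal rose by 4.68. In RNA it passed the filter through the Lin28a+ libraries only, so a rise was built into its selection.

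Pax7, which also stands on the myogenic list, rose from 139 and 154 CPM to 195 and 190 CPM (log2 fold change 0.36, SE 0.045). Irx3 fell from 51.5 and 51.9 CPM to 19.4 and 18.7 CPM (log2 fold change -1.47, SE 0.053). Dlx5 had summed rounded counts of 28 in control and 1 in Lin28a+ libraries, a depth-adjusted ratio of 23.7 with an exact 95% counting interval of 3.92 to 970, and it passed the filter through the control libraries. Pax3, the partner of Pax7 in embryonic muscle, was not called at 6.95 and 7.13 CPM in control libraries and 8.11 and 7.16 CPM in Lin28a+ libraries. In m6A-RIP 4 of 21 were called higher and 14 lower, beside 32.5% and 33.8% of all genes, with a median log2 fold change of -0.56. The hindlimb factors Pitx1 and Tbx4 had no row in input and were not analysed here.

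**Figure D5:**
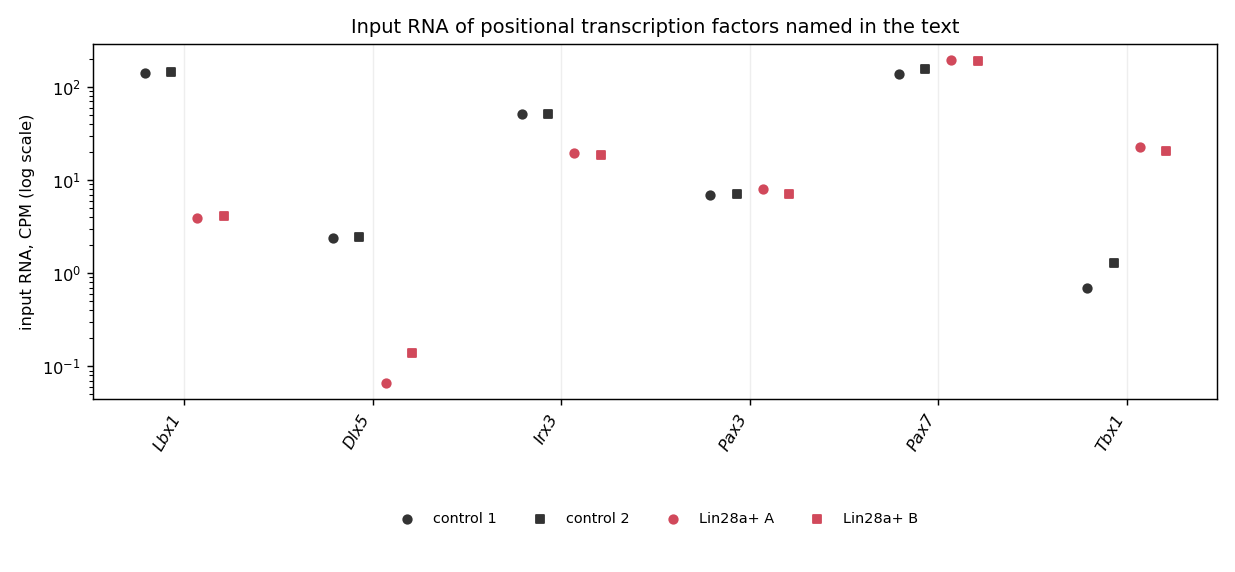
Input RNA of the tested positional transcription factors named in the text, in CPM on a log scale, ordered from the most negative to the most positive log2 fold change, with 1 point per control (black) or Lin28a+ (red) library. Lbx1 and Dlx5 at the left and Tbx1 at the right stand farthest apart between the groups.

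Among the myogenic markers, which place these cells along muscle differentiation, 5 of 18 tested were higher and 10 lower, beside 28.1% and 28.7% of all genes. Lower were Vcam1, Spry1 and Myf5 (log2 fold changes -1.93, -1.47 and -1.21). Actc1, Myog and Cdh15 were higher (3.75, 1.86 and 0.77), while Myod1 was not called (0.01). Genes of differentiated muscle went both ways, since Musk, Mylpf, Chrna1 and Des were also lower (-1.14, -1.09, -0.92 and -0.53). Pax7, a stem cell marker, was also higher (0.36). Their part in the positional results was not tested.

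Genes that flank the clusters were examined as neighbours on the chromosome. Of 21 tested, 4 were called higher and 8 lower, beside 28.1% and 28.7% of all genes, with a median log2 fold change of -0.07. The 3 with the largest falls were Snx10 (log2 fold change -1.19) beside HoxA, Atf2 (-0.86) beside HoxD and Nfe2l1 (-0.81) beside HoxB. The 3 with the largest rises were Copz1 (0.39) beside HoxC, and Atp5g1 (0.34) and Ube2z (0.18) beside HoxB.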

How the data were processed

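Input, m6A-RIP and Igf2bp3-RIP libraries of control and Lin28a+ MuSCs (2 per group) and 2 Lin28a-RIP libraries were used. The authors deposited estimated counts per gene for input, which need not be whole; some look like a mean over transcripts and none is 0. For the RIP libraries the deposited values are whole-number counts of each peak or row, not scaled between libraries. Per the labels, FastQC, HISAT2 2.0.4, MACS2 1.4.3 and DESeq2 1.42.0 were used, with builds GRCh38 and mm10; the counter, its use of strand and any pooling of replicates before peak calling are not given in the sources used here. The identifiers are of mouse. Columns were assigned by name; for Lin28a+ cells the input columns are headed as m6A-RIP libraries and both m6A-RIP columns have the same heading, so they were assigned to their group from the table they stand in, without a number.

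Input values were rounded. edgeR 4.0.16 in R 4.3.3 (quasi-likelihood test, TMM factors, filterByExpr, Benjamini-Hochberg adjusted p under 0.05) was run on each whole table, and the Hox rows were read from it. The SE is the log2 fold change divided by the root of F. RIP relative to input used genes in both tables with an interaction term, and each assay had its own TMM factors. With 2 libraries per group, the tests rest largely on a spread shared among features. They were also run on simulated counts, where only well-counted features were changed and each assay had a single spread. That run does not cover genes with low counts or with a spread of their own. In the input table a gene passed the filter at about 1.90 CPM in 2 libraries. Counts of 3 or fewer in every library of a group were given as a ratio of summed counts with an exact 95% interval. Alternatives used DESeq2 1.42.0, limma 3.58.1, other scalings and filters, and single libraries left out.

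The members follow from the symbol. The members and the lists were chosen with earlier results of these data known, so no list is independent support. Some genes are not reported here, although they stay in the fits and counts; the others were named by rule: every listed Hox gene, with values in every library for called genes, for the 5 with the highest mean input level and for those with an Igf2bp3 or Lin28a peak; up to 3 higher and 3 lower called genes per list by size of RNA change; and Igf2bp3 and Igf2bp1. Further genes, such as Ezh2, Pax3 and Meis1, were named after their values were seen. Promoter and miRNA sequences are from RefSeq (GRCm38.p6).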

Additional observations from a re-analysis of the deposited data

How the results depend on the processing

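With 2 libraries per group, the tests rest largely on a spread shared among features. In RNA, 9 of 19 Hox genes were called by edgeR and 3 with DESeq2. A floor of 10 counts in each library gave 8 of 18, and no filter gave 9 of 22. Over all 11317 genes edgeR called 3184 higher and 3248 lower, and DESeq2 called 3039 in either direction. That floor gave 5925 of 10421 genes, and no filter gave 6396 of 14751. Hoxc13, Hoxb4, Hoxc10 and Hoxa11 kept their calls whichever single input library was left out, as did Hoxb3, whose direction the filter had fixed. Hoxa7 lost its call without control replicate 1 or library A (adjusted p = 0.098 and 0.057), Hoxa9 without control replicate 2 or library B (0.14 and 0.095) and Hoxa10 without library A (0.061). Hoxa4 gained one without control replicate 2 (log2 fold change 0.81, adjusted p = 0.0094) and Hoxa6 without library B (-1.10, adjusted p = 0.011). In m6A-RIP, 1 of the 3 Hoxc9 rows gained a call without control replicate 1 or library A, with RLE size factors, and with that floor of 10 counts. The Hoxc8 row lost its call without control replicate 1 or library A (adjusted p = 0.13 and 0.25) and with DESeq2 (0.066), and the called Hoxc11 row without control replicate 1 (0.052). Per gene Hoxc11 lost its call without control replicate 1 or library B and with DESeq2 (0.35, 0.14 and 0.079), and Hoxc4 was called in the full set and in no set with a library left out.

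For RNA and m6A-RIP, no paired analysis was possible because the numbered Lin28a+ input columns are named for another assay and the Lin28a+ m6A-RIP columns share a single name, so no library could be given a number. For Igf2bp3-RIP, numbers 1 and 2 stand in both groups but the labels do not say what they mark; the replicate 2 minus 1 differences of the groups had r = 0.70 across 19465 peaks, which share libraries and depth and are not independent replicates. With the replicate number as a block, 1 of 2 Hox values was called in each Igf2bp3-RIP comparison, each time Hoxc13: -1.07 for the peak (adjusted p = 4.8e-04), -1.08 per gene (adjusted p = 0.018) and 0.85 relative to RNA (adjusted p = 0.0077). Over all features the block called 1988 peaks, 374 genes and 1304 genes relative to RNA, against 24, 13 and 41 without it; DESeq2 called 263, 115 and 65. Relative to RNA, leaving out a library gave 0 to 1 Hox genes called, the 1 being Hoxc13 without Lin28a+ Igf2bp3-RIP replicate 2 (1.12, adjusted p = 0.049998). The limma voom alternative was chosen after seeing the data.

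A change of sign occurred only in values not called in the report; the cause was not tested. With total counts these log2 values became 0.0063 for Hoxc6 RNA, -0.14 for the first Hoxc11, -0.10 for the second Hoxc4 and -0.12 for the first Hoxa4 m6A-RIP row, and for Hoxa5 0.010 in m6A-RIP relative to RNA, 0.052 in Igf2bp3-RIP per gene and 0.019 relative to RNA. For Hoxa5, m6A-RIP relative to RNA was 0.013 with DESeq2-type (RLE) size factors, 0.025 with that floor of 10 counts and 0.0024 with DESeq2, Igf2bp3-RIP per gene was 0.0097 with RLE factors and 0.012 with DESeq2, and its peak was -0.055 with the replicate block. With single libraries left out, RNA spanned -0.26 to 0.046 for Hoxa5, -0.033 to 0.12 for Hoxc4, -0.17 to 0.0028 for Hoxc9, -0.050 to 0.0077 for Hoxc6 and -0.45 to 0.59 for Hoxc5. The m6A-RIP rows spanned -0.084 to 0.14 and -0.016 to 0.35 (first and second Hoxc11), -0.17 to 0.16 (Hoxc10), -0.11 to 0.022 and -0.088 to 0.047 (first and second Hoxa5), -0.15 to 0.092 (first Hoxc6), -0.040 to 0.12 (first Hoxa4) and -0.032 to 0.15 (second Hoxc4), and Hoxc10 per gene -0.22 to 0.10. Relative to RNA, m6A-RIP spanned -0.065 to 0.093 for Hoxa9, -0.015 to 0.13 for Hoxc11, -0.044 to 0.090 for Hoxa10, -0.15 to 0.16 for Hoxa5 and -0.72 to 0.33 for Hoxc5. For Hoxa5, Igf2bp3-RIP spanned -0.44 to 0.41 for the peak, -0.36 to 0.36 per gene and -0.48 to 0.23 relative to RNA. Of the values of single Hox genes or rows under all alternatives, 699 kept direction and side of the threshold, 30 lost a call, 17 gained one and 50 changed sign. The alternatives planned for Lin28a-RIP relative to RNA were not run, since no Hox gene had a Lin28a-RIP peak.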

Other observations

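Noncoding transcripts of the Hox clusters appeared in the m6A-RIP table more than in input: 7 of 28 had rows there, and 2 of 28 were listed in input. Hoxb3os, the antisense partner of Hoxb3, had 286 and 206 counts in control and 6 and 2 counts in Lin28a+ m6A-RIP libraries, a depth-adjusted ratio of 63.5 with an exact 95% counting interval of 32.0 to 148, and was called lower (log2 fold change -5.79, SE 0.37). Hoxa11os, the antisense partner of Hoxa11, rose in all of its 3 rows, by 1.17, 0.71 and 1.76 on the log2 scale. The row with the largest rise had 4.81 and 3.51 CPM in control libraries and 11.7 and 14.1 CPM in Lin28a+ libraries (SE 0.18, adjusted p = 1.3e-06). Hoxa11, its sense partner, also rose, in input RNA. Without strand, reads of a gene and its antisense partner cannot be told apart.

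Hotairm1, from the 3′ end of the HoxA cluster, was not called, at 23.8 and 19.7 CPM in control libraries and 20.9 and 21.5 CPM in Lin28a+ libraries (log2 fold change 0.11, adjusted p = 0.40). Gm53 was called higher (log2 fold change 0.55), and Gm15050 and Hoxaas3 were not called (0.03 and -0.22). A row annotated to Mir196a-2, a miRNA gene of the HoxC cluster, had 102 and 104 CPM in control libraries and 87.8 and 86.2 CPM in Lin28a+ libraries (log2 fold change -0.09, adjusted p = 0.17). The groups did not overlap, and in the fit per gene the same counts were called lower (log2 fold change -0.14, adjusted p = 0.016). Its mature product is shown because it is known to target Hox transcripts, with the seed (bases 2 to 8) in capitals. mmu-miR-196a-5p: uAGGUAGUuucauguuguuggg. The row is a long-RNA signal annotated to this gene and not a measure of the mature miRNA.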
